A study of Mus musculus with 23 samples.

Results

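Acss2, the gene deleted in these mice, and 9 genes that lie beside it on mouse chromosome 2 (Pigu, Ncoa6, Ggt7, Gss, Myh7b, Trpc4ap, Edem2, Mmp24 and Eif6) were followed through 23 hippocampus libraries. The 10 genes were taken by name, for their position and not for a measured value, from 24985 gene symbols in each of the 2 deposited count tables. The question was how much Acss2 RNA was left after the deletion, and whether genes next to it differed too. All 10 genes passed the filter on low counts in both experiments.

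The mice were on a C57BL6/J background. Per the labels, exons 3 to 7 of Acss2 were removed in embryos at the single-cell stage, so that a KO mouse lacked them in every tissue and from the start of life. Experiment 1 used whole hippocampus of mice at baseline: 2 WT, 2 Het (Acss2 heterozygote) and 2 KO libraries, all of batch B0. Experiment 2 used dorsal hippocampus, cut as thin sections, from both WT and KO animals. Home cage mice gave 5 WT libraries (replicates 1 and 2 of batch B1, 3 to 5 of B2) and 5 KO libraries (1 to 3 of B2, 4 and 5 of B3). Fear libraries came from mice killed 30 minutes after a 1-shock contextual conditioning session, with 3 WT libraries (all of B1) and 4 KO libraries (1 and 2 of B1, 3 and 4 of B3). The labels do not say what a batch is, how many founders the line came from, or whether each library came from a separate animal, so a p-value here measures the spread between these libraries.

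ACSS2 makes acetyl-CoA from acetate in the cytosol and the nucleus. Acetyl-CoA is the donor of the acetyl group that histone acetyltransferases place on histones, and in neurons ACSS2 is known for supplying it at genes that respond to activity. A deletion of exons can leave a transcript that is made but destroyed early when its reading frame meets a stop codon, and cutting DNA out of a locus can also change genes nearby.

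Acss2 (ENSMUSG00000027605.18) lies at chr2:155517948-155585724 of mm10, on the plus strand, by GENCODE M21. The transcript used here, the one with 18 exons, has 2931 bp. Exons 3 to 7 span chr2:155549191-155550469 and hold 460 bp of it, or 15.7%, so 84.3% of the transcript can still be counted when they are missing. Of the 10 annotated Acss2 transcripts, 6 have an exon in the deleted stretch, and the counts do not tell the transcripts apart.

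The length of exons 3 to 7 leaves a remainder of 1 after division by 3, so joining exon 2 to exon 8 would shift the reading frame. The next lines show this for the 18-exon transcript, because it bears on what the RNA left in KO libraries could encode. Each line gives the last 30 bases of exon 2 (chr2:155522147-155522176, plus strand) and the first 30 bases of the exon that follows, which is exon 3 at chr2:155549191-155549220 or exon 8 at chr2:155555854-155555883. Capitals mark codon 125, which spans the join.
Exon 2 joined to exon 3: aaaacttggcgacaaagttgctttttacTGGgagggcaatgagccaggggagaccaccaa
Exon 2 joined to exon 8: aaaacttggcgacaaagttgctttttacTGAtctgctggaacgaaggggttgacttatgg
The codon TGG, for tryptophan, is replaced by the stop codon TGA in this join. The joined frame would thus hold 124 of the 701 residues. Its stop spans the join and ends in exon 8, 1143 bp before the last exon junction. This follows from the annotation alone: the labels give neither the ends of the deletion nor the transcript behind the exon numbers, and the counts do not show which exons were joined.

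The neighbours sit on both sides. On the upstream side Pigu, Ncoa6 and Ggt7 follow each other on the minus strand, 160518, 44054 and 0 bp from Acss2. On the downstream side are Gss (0 bp), Myh7b (25488 bp), Trpc4ap (48547 bp), Edem2 (115953 bp), Mmp24 (189618 bp) and Eif6 (234108 bp). Myh7b and Mmp24 are on the plus strand and the others on the minus strand. The kit named in the labels does not mark strand, and exons of Ggt7 and Gss overlap those of Acss2 over 197 and 395 bp, so reads from those stretches cannot be told apart. The 18-exon transcript shares the 197 bp with Ggt7 but ends 435 bp before Gss. Acss2os, an antisense RNA inside the gene with 335 of its 629 exon bases shared with Acss2, had 0 reads in each of the 23 libraries.

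**Figure D1:**
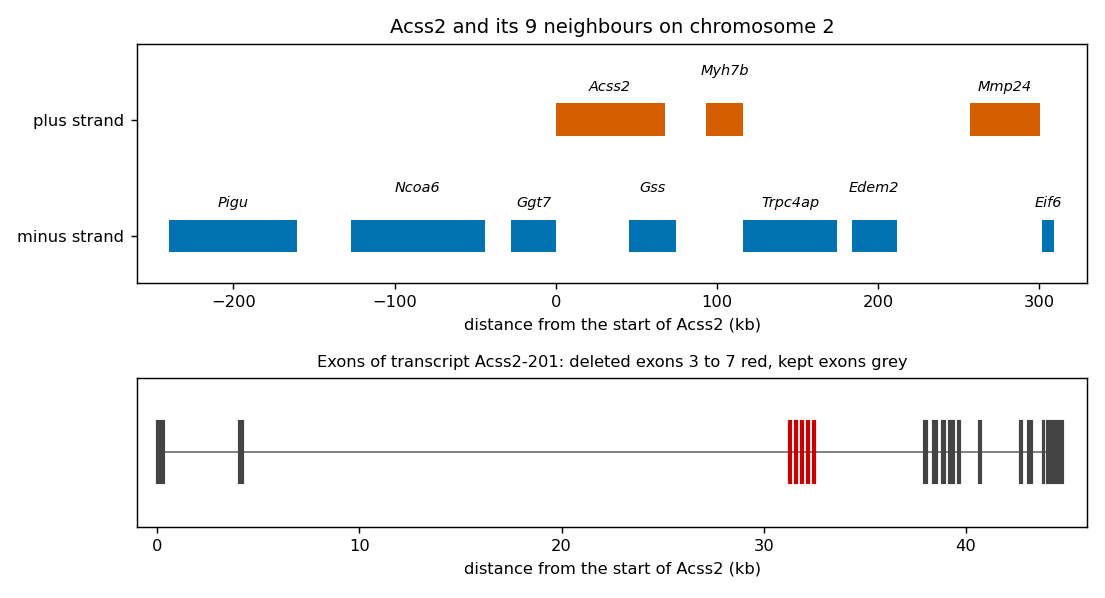
Upper panel: the 10 genes on chromosome 2 by distance from the start of Acss2 in kb, with plus-strand genes in orange and minus-strand genes in blue. Lower panel: the exons of the 18-exon transcript, also in kb, with outlines widened to be visible, where the 5 red exons, 3 to 7, are those the labels name as deleted and stand close together inside the gene.

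Totals were 18814460 to 27293661 counts per library in whole hippocampus and 5362773 to 23412644 in dorsal hippocampus. Levels are given as CPM, which are counts scaled to the TMM-adjusted library size, and differences as log2 values from edgeR ± an approximate standard error, with p-values adjusted over all genes tested and a threshold of 0.05. In whole hippocampus the KO libraries also differed from the others in sex-linked genes. Xist, which is transcribed from the inactive X chromosome, stood at 663 to 677 CPM in WT, 597 to 644 CPM in Het and 0.137 to 0.145 CPM in KO. Ddx3y, on the Y chromosome, stood at 0, 0.107 to 0.186 and 89.6 to 101 CPM. KO and sex cannot be told apart there, whereas every dorsal library expressed Ddx3y, at 70.5 to 120 CPM. Hippocampal markers (CA1, dentate gyrus, CA2 and CA3) had reads in each group, with no gene of these lists at 0.

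Acss2 RNA fell to a small remainder in KO, and the remainder was counted in each of the 11 KO libraries. Whole hippocampus KO libraries held 186 and 154 Acss2 reads, or 6.73 and 7.02 CPM, against 60.9 and 60.3 CPM in WT. Dorsal KO home cage libraries held 83, 93, 85, 70 and 91 reads, or 4.17, 4.55, 3.87, 4.89 and 5.85 CPM, against 57.6, 64.7, 71.3, 66.9 and 65.6 CPM in WT. KO fear libraries held 40, 43, 101 and 119 reads, or 5.47, 5.18, 5.43 and 6.04 CPM, against 57.0, 57.7 and 56.2 CPM in WT fear. The highest KO library of either experiment lay far below the lowest WT library, so the groups did not overlap. How many of the reads left in KO came from the stretches shared with Ggt7 or Gss was not tested.

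**Figure D2:**
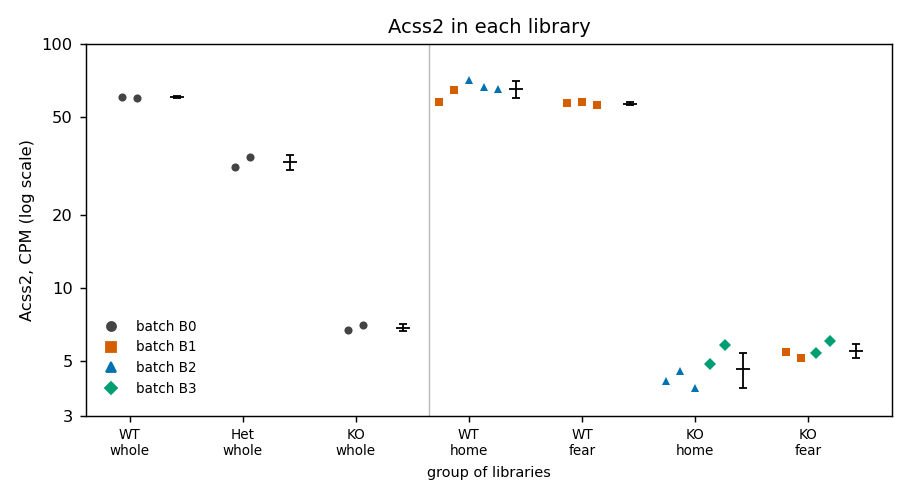
Acss2 in CPM on a log axis in each of the 23 libraries of 7 groups, with a point per library shaped and coloured by batch and a bar for the mean ± SD beside each group. The 2 Het libraries, at 31.2 and 34.3 CPM, stand between WT and KO, and the 11 KO libraries lie between 3.87 and 7.02 CPM.

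Against WT, the fitted KO level was 11.3% in whole hippocampus (95% interval 9.92 to 13.0%), 6.55% in the dorsal home cage (5.64 to 7.61%) and 8.63% after fear (7.14 to 10.4%). The log2 differences were -3.14 ± 0.081 (n = 2 and 2, edgeR adjusted p = 4.23e-05), -3.93 ± 0.10 (n = 5 and 5, adjusted p = 6.12e-14) and -3.54 ± 0.13 (n = 3 and 4, adjusted p = 1.96e-11). The 2 experiments were counted and normalized separately, and the difference between their remainders was not tested. Within batch B2 alone the home cage difference was -4.01 (adjusted p = 5.83e-06), and within B1 alone the fear difference was -3.40 (adjusted p = 2.46e-06). Setting reads against the exons that were kept, the KO level per kb was 13.5% of WT in whole hippocampus and 8.49% in the dorsal home cage. The authors' deposited normalized values gave KO means of 11.4% of WT in whole hippocampus, 14.0% in the home cage and 17.0% after fear. The dorsal deposited values have a floor: Acss2os, without a read, is listed at 46.1 in each of the 17 libraries, against a KO home cage mean of 134 for Acss2.

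In Het whole hippocampus, Acss2 stood at 31.2 and 34.3 CPM. The fitted level was 54.1% of WT (95% interval 48.1 to 60.9%), and the mean of 32.8 ± 2.18 CPM (SD, n = 2) lay 0.969 CPM under the midpoint of the WT and KO means, 33.7 CPM. The log2 difference from WT was -0.89 ± 0.071, and it missed the threshold (edgeR adjusted p = 0.0777), with 0% of 15453 genes called. Before adjustment 2145 genes had p under 0.05. DESeq2 called 142 genes, among them Acss2 (adjusted p = 3.11e-10). KO stood below Het by a log2 difference of -2.25 ± 0.080 (adjusted p = 0.000213).

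Among the 10 genes compared per length of transcript in the WT home cage, Acss2 had the 4th highest level, at 22.3 ± 1.69 CPM per kb (SD, n = 5). Above it were Trpc4ap at 60.6 ± 7.11, Ggt7 at 37.8 ± 5.66 and Eif6 at 33.7 ± 3.67 CPM per kb, of which the mean ± SD ranges of Ggt7 and Eif6 overlapped. Below it were Gss at 13.3 ± 0.903, Pigu at 12.1 ± 1.23, Mmp24 at 11.3 ± 2.24, Ncoa6 at 9.91 ± 1.31 and Edem2 at 9.17 ± 0.578 CPM per kb, and the mean ± SD ranges of genes next to each other in that order overlapped. Myh7b was lowest at 0.966 ± 0.0653 CPM per kb. In KO home cage libraries Acss2, at 1.59 ± 0.261 CPM per kb of the full transcript, took the 9th place, ahead of Myh7b only. Per kb of the kept exons its mean there was 1.89 CPM.

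The neighbours did not share the fall of Acss2 where mice were at rest. In KO against WT whole hippocampus 1 of the 10 genes was called, Acss2, where edgeR called 0.0388% of 15453 genes. In the dorsal home cage Acss2 was the 1 gene called among all 14808 tested, which is 0.00675% of them. DESeq2 called 2 genes there, and 1674 had p under 0.05 before adjustment. Fitted log2 differences of the 9 neighbours ran from -0.15 to 0.01 (whole hippocampus) and from -0.30 to 0.24 (home cage), with smallest adjusted p-values of 0.821 and 0.464. A p that misses the threshold does not show equal levels, so the intervals set what these libraries could have hidden.

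The genes that overlap Acss2 stayed near their WT level at rest. Ggt7, a member of the gamma-glutamyltransferase family whose start overlaps that of Acss2, was at 81.9 to 115 CPM in WT home cage libraries (median 99.1) and 93.2 to 121 CPM in KO (median 102). Its fitted KO level was 95.2% of WT (95% interval 82.3 to 110%). Gss, glutathione synthetase, makes glutathione in its last step. It was at 24.1 to 27.7 CPM in WT (median 27.3) and 23.0 to 30.1 CPM in KO (median 24.5), a fitted level of 99.8% (86.4 to 115%). In both genes the KO and WT home cage libraries overlapped. In whole hippocampus the fitted levels were 94.4% for Ggt7 (84.3 to 106%) and 94.2% for Gss (81.1 to 109%). Ggt7 libraries of KO and WT overlapped there too. Those of Gss did not, at 20.4 and 21.3 CPM in WT and 19.5 and 19.7 CPM in KO. How many of all genes lacked overlap at 2 libraries a group was not tested.

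Farther out, Trpc4ap, a substrate receptor of a ubiquitin ligase, stood at 104% of WT in the KO home cage (95% interval 93.5 to 115%), and Edem2, which takes part in the degradation of misfolded glycoproteins of the endoplasmic reticulum, at 105% (91.9 to 119%). Pigu, a subunit of the enzyme that attaches glycolipid anchors to proteins, stood at 95.4% (82.4 to 110%). Mmp24, a metalloproteinase of the cell membrane, stood at 99.6% (84.6 to 117%). The lower ends of these home cage intervals were at 82.4% of WT or above. In whole hippocampus the fitted KO levels were 92.2% of WT for Trpc4ap (83.0 to 103%) and 99.4% for Edem2 (86.5 to 114%). Those of Pigu and Mmp24 were 98.1% (84.7 to 114%) and 90.2% (77.7 to 105%).

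The widest limits in the home cage were those of Ncoa6, Eif6 and Myh7b. Ncoa6, a coactivator of nuclear receptors, was at 80.6, 65.5, 80.0, 65.5 and 60.2 CPM in WT home cage libraries and 45.4, 57.8, 80.2, 60.6 and 64.4 CPM in KO, a fitted level of 81.2% (95% interval 63.7 to 103%). Eif6, which keeps the large ribosomal subunit from joining the small one, had a fitted level of 118% (94.8 to 148%). Myh7b, a myosin heavy chain, had 117% (90.2 to 153%) from as few as 43 reads a library. Within batch B2 alone the 9 neighbours ran from -0.16 (Ncoa6) to 0.15 (Eif6 and Myh7b) on the log2 scale.

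**Figure D3:**
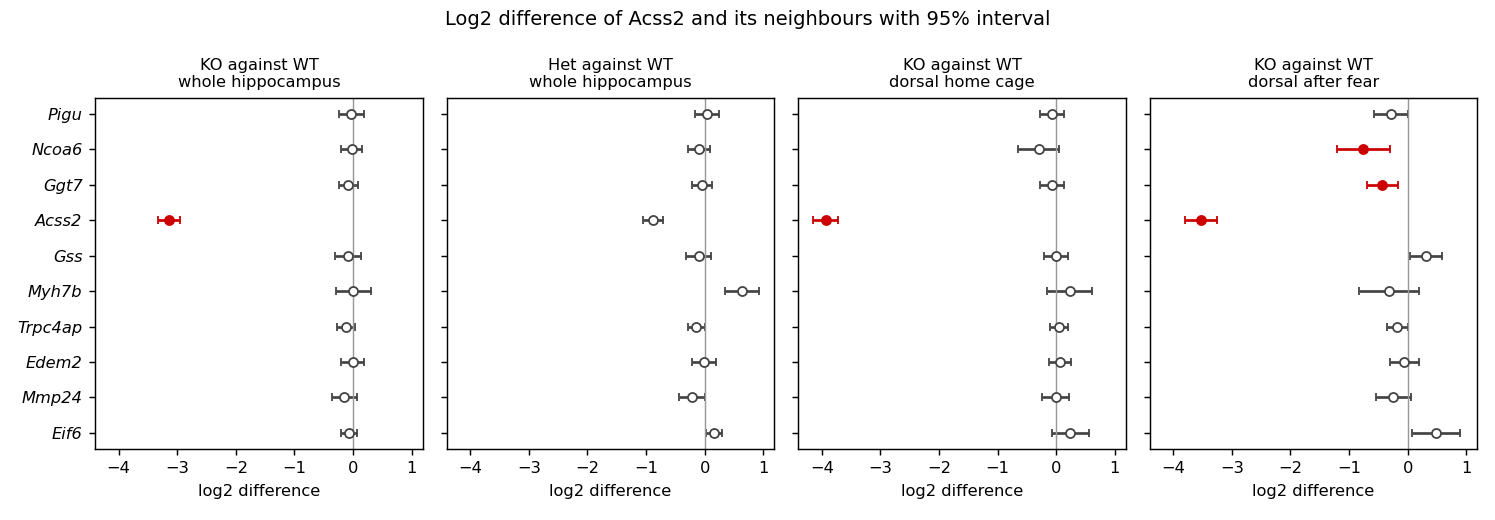
Log2 difference with its 95% interval for the 10 genes, in their order along chromosome 2, in 4 comparisons. Filled red points passed the edgeR threshold: Acss2 in KO against WT in all 3 settings, and Ncoa6 and Ggt7 in KO against WT after fear.

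Het libraries put Myh7b apart from its group. It stood at 13.8 and 16.3 CPM in Het, against 9.65 and 9.67 CPM in WT and 9.30 and 10.1 CPM in KO. The log2 difference from WT was 0.64 ± 0.12 (95% interval 0.35 to 0.94), and it missed the threshold (edgeR adjusted p = 0.220). KO libraries, which also differed from WT and Het in sex-linked genes, had a log2 difference of 0.01 ± 0.12 from WT in the same gene. Both Het libraries also had more reads of neocortex markers (Tbr1, Foxp2, Rprm and Lamp5), summing to 150 to 303 CPM against 119 to 120 in WT and 125 to 129 in KO, and fewer of dentate gyrus markers (Prox1, C1ql2, Dsp, Lct and Trpc6), at 173 to 306 CPM against 325 to 352 and 325 to 366. No gene of either list was at 0, and the part of tissue makeup in the Myh7b values was not tested. In bulk tissue, fewer cells of a type and less RNA per cell cannot be told apart.

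Without Het replicate 1, which leaves 1 Het library, the log2 difference of Myh7b from WT was 0.75. Eif6 stood at 44.6 and 44.6 CPM in Het, 39.2 and 40.8 CPM in WT and 37.8 and 38.6 CPM in KO, with both Het libraries the highest. Neither of its differences passed (adjusted p = 0.338 against WT and 0.264 against KO). In KO against Het whole hippocampus 1 of the 10 genes was called, Acss2, where 0.0841% of all genes were.

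After fear conditioning, 3 of the 10 genes differed between KO and WT: Acss2, Ncoa6 and Ggt7. In that comparison edgeR called 22.3% of 14808 genes, so 2 of 9 neighbours is a share near that of all genes. Ncoa6 stood at 66.5, 87.0 and 88.3 CPM in WT fear and 51.2, 37.0, 58.2 and 66.7 CPM in KO fear. The lowest WT library lay just under the highest KO library. Its log2 difference was -0.76 ± 0.21 (95% interval -1.21 to -0.31, edgeR adjusted p = 0.0236).

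Ggt7 stood at 88.1, 98.0 and 104 CPM in WT fear and 63.8, 78.0, 93.2 and 109 CPM in KO fear. The groups overlapped: the 2 low KO libraries were of batch B1, as were all WT fear libraries, and the 2 higher ones of B3. Its log2 difference, with batch as a term, was -0.43 ± 0.13 (95% interval -0.69 to -0.17, adjusted p = 0.0261), and -0.17 without that term (adjusted p = 0.498). Within B1 alone it was -0.44 (adjusted p = 0.0727), and for Ncoa6 -0.86 (adjusted p = 0.0145).

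Both calls hung on few libraries. With WT fear replicate 2, WT fear replicate 3 or KO fear replicate 2 left out, neither Ncoa6 nor Ggt7 passed, and Ggt7 also failed without KO fear replicate 1 (adjusted p = 0.108). With both KO fear libraries of B1 left out, an alternative chosen after seeing the data, Ncoa6 had -0.31 (adjusted p = 0.776) and Ggt7 -0.36 (adjusted p = 0.699). Acss2 still passed there, at -3.82, and was then the 1 gene called of all. With the replicate number as a block, Ncoa6 had -0.67 (adjusted p = 0.122) and Ggt7 -0.35 (adjusted p = 0.148).

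Other measures differed between the WT fear and KO fear groups. Ependymal markers summed to 5.68 to 8.10 CPM in WT fear and 19.8 to 59.1 CPM in KO fear, with 5 of 5 genes called higher in KO and none at 0. Oligodendrocyte markers summed to 2059 to 2740 and 3395 to 5069 CPM, with 5 of 6 called higher, and CA1 markers to 638 to 1091 and 364 to 914 CPM, with 5 of 6 called lower. In the home cage, ependymal sums were 27.4 to 76.7 CPM in WT and 18.6 to 88.7 CPM in KO. Oligodendrocyte sums there were 3623 to 7291 and 3478 to 6030 CPM, and CA1 sums 374 to 543 and 360 to 904 CPM. In WT fear against home cage, edgeR called 5 of 6 oligodendrocyte and 2 of 5 ependymal markers lower. It called 5 of 6 CA1 markers higher there, and in KO fear against home cage 0 markers of these lists. The median log2 deviation of genes with at least 6000 bp of exon minus that of genes with at most 2000 bp, a measure added after seeing the data, was 0.24 to 0.59 in WT fear libraries and -0.41 to 0.03 in KO fear libraries. In home cage libraries the same measure was -0.13 to 0.30 in WT and -0.57 to 0.16 in KO. Ncoa6, with 9744 bp of exon, belongs to the long genes, and Ggt7, with 3264 bp, to neither class. The part of these measures in the Ncoa6 and Ggt7 calls was not tested.

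The other neighbours did not pass after fear. Eif6 stood at 45.9, 38.6 and 40.3 CPM in WT fear and 44.0, 78.6, 57.0 and 45.6 CPM in KO fear (log2 0.49 ± 0.19, edgeR adjusted p = 0.0737). Gss had 0.32 ± 0.13 (adjusted p = 0.0794) and Pigu -0.29 ± 0.14 (adjusted p = 0.126). Mmp24 stood at 50.9 to 61.9 CPM in WT fear and 45.1 to 50.7 CPM in KO fear, with a log2 difference of -0.24 ± 0.14 (adjusted p = 0.210). Trpc4ap, Edem2 and Myh7b had adjusted p-values of 0.153, 0.768 and 0.344.

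**Figure D4:**
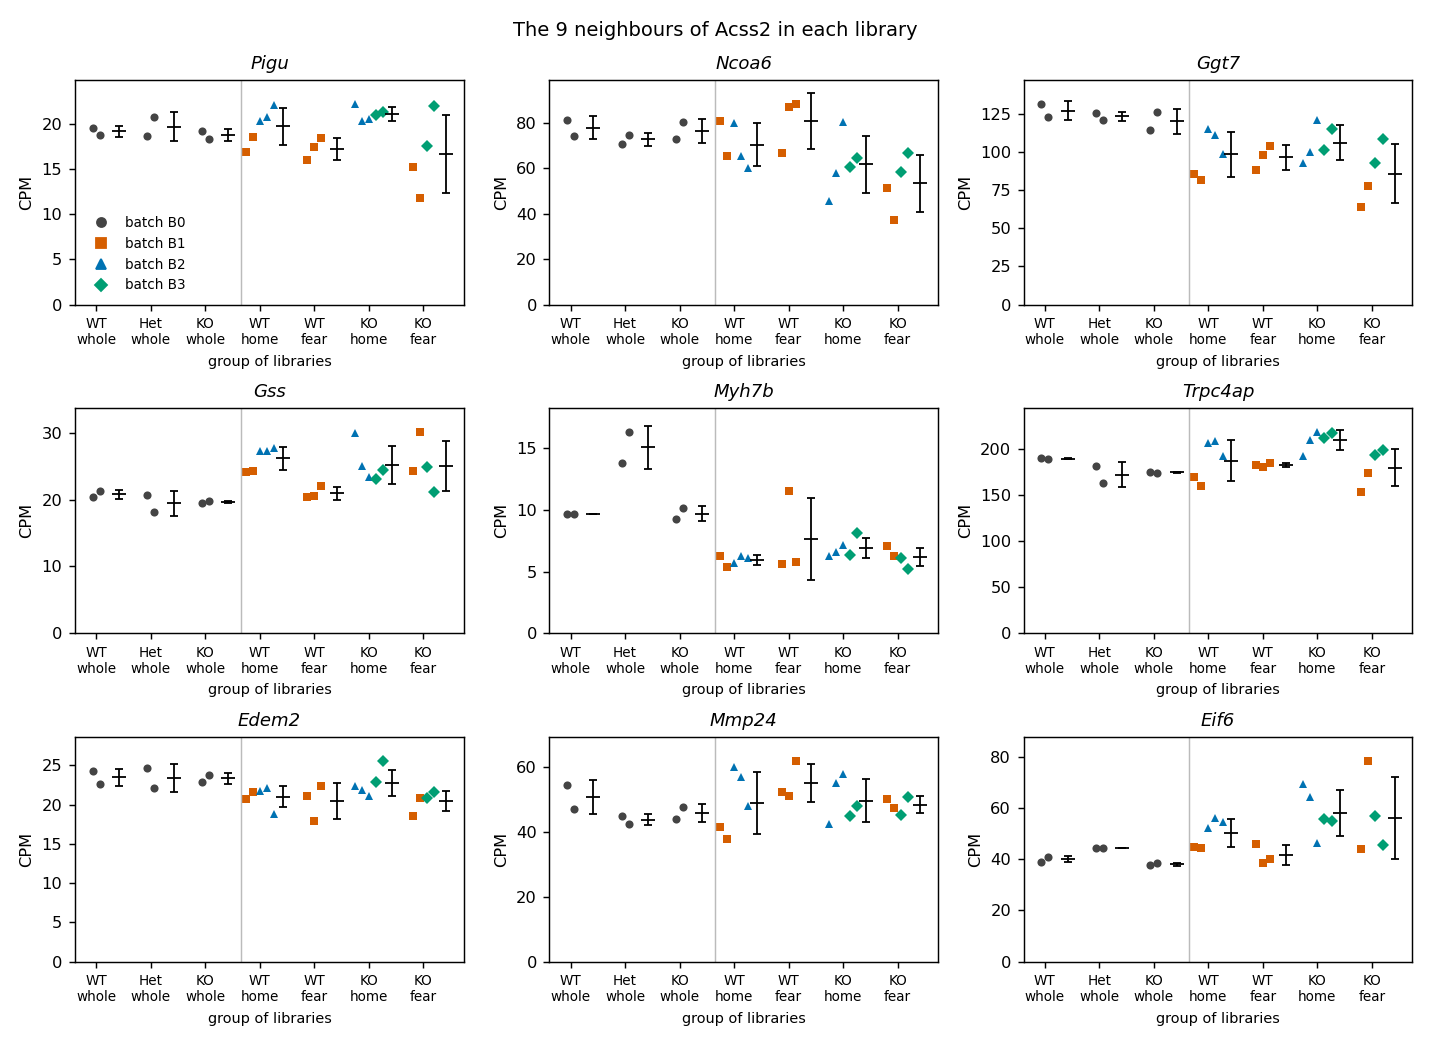
CPM of the 9 neighbours in each of the 23 libraries, on axes that start at 0, with a point per library shaped and coloured by batch and a bar for the mean ± SD beside each group. Myh7b stands higher in the 2 Het libraries, and the 2 KO fear libraries of batch B1 hold the lowest Ncoa6, Ggt7 and Pigu values among the KO fear libraries.

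Fear conditioning itself moved none of the 10 genes past the threshold. In WT, edgeR called 0 of the 10 and 1.63% of all genes, and DESeq2 called 0 of the 10 as well. Before adjustment 3083 genes had p under 0.05. Acss2 had a log2 difference of -0.15 ± 0.11 (adjusted p = 0.423). Mmp24 had the largest of the neighbours' differences, 0.41 ± 0.14 (adjusted p = 0.127). WT fear libraries stood at 52.3, 50.9 and 61.9 CPM of Mmp24, and the WT home cage libraries of the same batch at 41.6 and 37.6 CPM. Those of batch B2 reached 60.1 CPM. Gss stood at 20.3 to 22.1 CPM after fear and 24.1 to 27.7 CPM in the home cage (-0.27 ± 0.13, adjusted p = 0.253).

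In KO, edgeR called 0 of the 10 and 0% of all genes, although 714 genes had p under 0.05 before adjustment. The count by DESeq2 was 6 genes and 0 of the 10. The Acss2 remainder had a log2 difference of 0.24 ± 0.12 (adjusted p = 0.968). Within batch B3 it was 4.89 and 5.85 CPM in the home cage and 5.43 and 6.04 CPM after fear, a difference of 0.08 (adjusted p = 0.956). The interaction of genotype and fear, which asks whether the KO difference changed with fear, was called for 0 of the 10 and for 0.479% of all genes (3238 at p under 0.05 before adjustment, and 907 by DESeq2, with 0 of the 10). For Acss2 it was 0.40 ± 0.14 (adjusted p = 0.131), for Ggt7 -0.36 ± 0.14 (adjusted p = 0.163) and for Ncoa6 -0.46 ± 0.24 (adjusted p = 0.267). The calls of Ggt7 and Ncoa6 after fear are therefore not shown to differ from their home cage values. The fear and home cage comparisons share libraries in the fit.

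In a wider window, 85 genes besides Acss2 are annotated within 1 Mb of it on either side, with the 9 neighbours among them. Of the 85, 50 were in the tables, and 41 (whole hippocampus) or 39 (dorsal) were tested. Both of these sets include the 9 neighbours, so Ncoa6 and Ggt7 are counted again below. In KO against WT at rest, 0 of 41 and 0 of 39 were called by edgeR. At p under 0.05 before adjustment the shares were 0% and 15.4%, beside 6.09% and 11.3% of all genes. After fear 9 of 39, or 23.1%, were called, next to 22.3% of all genes. The 9 genes were Ncoa6, Ggt7, Cbfa2t2, Zfp341, Cep250 and Rbm12, which were lower in KO, and Romo1, Dynlrb1 and Map1lc3a, which were higher. The differences farthest from 0 were those of Romo1, which encodes a small protein of the inner mitochondrial membrane, at 1.27 ± 0.30 and 558315 bp from Acss2, Ncoa6, and Zfp341, a zinc finger protein, at -0.71 ± 0.21 and 871127 bp from Acss2. The called genes lay on both sides and from 0 to 978592 bp away. With both KO fear libraries of B1 left out, 0 of the 9 passed, and Romo1 had 0.63 (adjusted p = 0.699).

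**Figure D5:**
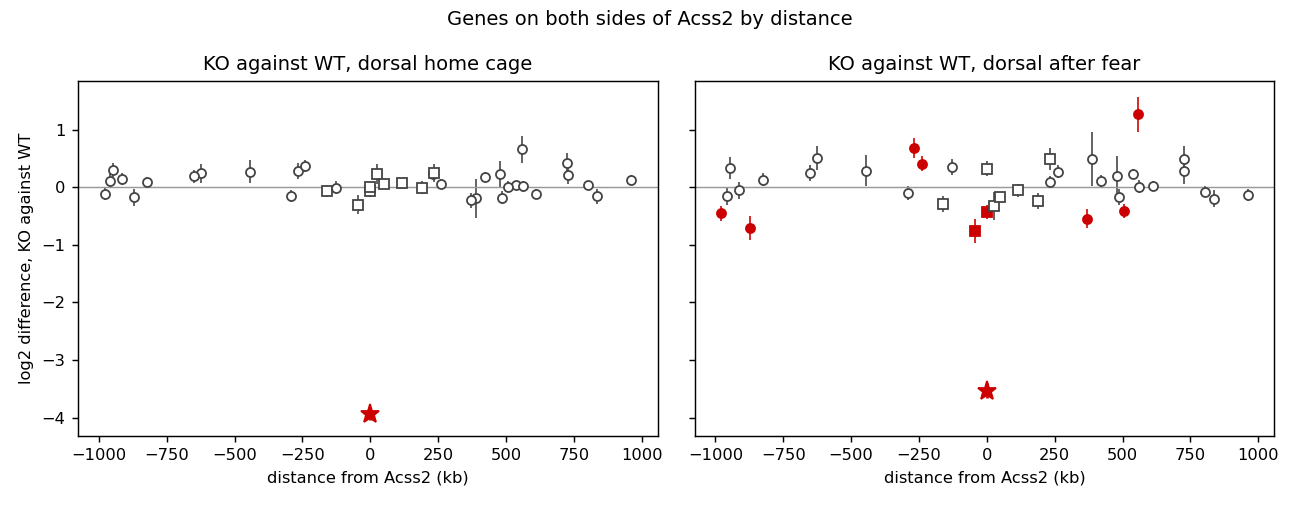
Log2 difference of KO against WT ± SE by distance from Acss2 in kb for the 39 genes tested within 1 Mb, in the home cage (left) and after fear (right), with Acss2 as a star, the 9 neighbours as squares and the other genes as circles. Filled red symbols passed the edgeR threshold, which are Acss2 alone on the left and Acss2 with 9 genes spread over the window on the right.

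The acetyl-CoA pathway around Acss2 showed no call at rest. Of 33 tested genes that make, carry or use acetyl-CoA, 0 were called in KO against WT at rest in either experiment. Acss1, the mitochondrial acetyl-CoA synthetase, had 0.01 ± 0.082 in whole hippocampus and 0.23 ± 0.12 in the home cage (edgeR adjusted p = 0.995 and 0.449), and Acss3 had 0.21 ± 0.59 and -0.19 ± 0.32. Acly, which makes acetyl-CoA from citrate, had 0.01 ± 0.048 and -0.12 ± 0.085. The smallest p-values of the list belonged to Mpc2 (0.44 ± 0.16) and Mpc1 (0.36 ± 0.14), subunits of the mitochondrial pyruvate carrier, in the home cage (both adjusted p = 0.440), and to Pdk2, a kinase that inhibits pyruvate dehydrogenase, in whole hippocampus (-0.22 ± 0.063, adjusted p = 0.774). The list's median in the home cage was 0.05, beside -0.02 over all genes.

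After fear 8 of the 33 were called, or 24.2%, next to the 22.3% of all genes. Aspa, which splits N-acetylaspartate and is made by oligodendrocytes, was higher in KO (1.39 ± 0.33, edgeR adjusted p = 0.0165), as were Mpc2, Acot7, Acat1 and Pdha1. Nat8l, which makes N-acetylaspartate, was lower (-0.52 ± 0.12, adjusted p = 0.0155), as were Fasn and Pdk1. Aspa was also lower in WT fear against the home cage, the 1 call of the list there.

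Of 11 histone acetyltransferase genes, 0 were called at rest and 7 after fear, or 63.6%, beside 22.3% of all genes. Crebbp (-0.70 ± 0.18, edgeR adjusted p = 0.0188), Ep300 (-0.75 ± 0.20, adjusted p = 0.0197), Naa60, Kat2a, Kat6a and Kat7 were lower in KO, and Hat1 was higher (0.60 ± 0.20). Their median was -0.44, beside 0.01 over all genes. With both KO fear libraries of B1 left out, each of the 7 missed the threshold. With the replicate block Acss2 was the 1 gene called among all genes, so none of the 7 passed there either. The ependymal, oligodendrocyte and CA1 markers differed between the same groups, as did the long minus short gene measure (0.24 to 0.59 in WT fear, -0.41 to 0.03 in KO fear), and their part in these calls was not tested.

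Gss and Ggt7 stand beside the genes of glutathione metabolism. Of 14 further genes of that pathway tested in dorsal hippocampus, 0 were called at rest and 3 after fear, or 21.4%, next to 22.3% of all genes: Gpx4 (0.69 ± 0.20, edgeR adjusted p = 0.0286), Gpx1 and Chac2 were higher in KO. Ggt1, the classical gamma-glutamyltransferase, had 0.54 ± 0.24 in the home cage (adjusted p = 0.440) and -0.37 ± 0.34 after fear (adjusted p = 0.447). In whole hippocampus 0 of 15 were called in each of the 3 comparisons.

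The 5 genes whose log2 CPM followed that of Acss2 most closely over the 17 dorsal libraries were Appbp2 (Pearson r = 0.81), Syt10 (0.81), Zfp536 (0.81), Ssh2 (0.80) and Tgfbr3 (0.80). This is a description of libraries that fall into WT and KO clusters. Over the 6 whole hippocampus libraries the same genes had r of -0.65, -0.29, -0.28, -0.40 and -0.63. They lie on chromosomes 11, 15, 7, 11 and 5, none beside Acss2. In the home cage, KO against WT differences ran from -0.64 (Syt10) to -0.29 (Ssh2), and none passed (edgeR adjusted p = 0.440). The genes were chosen over these same libraries, so the direction follows from the choice and is no separate result.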

How the data were processed

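Raw counts per gene symbol, deposited by the authors as whole numbers for 6 whole and 17 dorsal hippocampus libraries, were the main data. The deposited normalized signal of whole hippocampus equals those counts divided by 1 factor per library, and the deposited dorsal signal has a floor; both were used for Acss2 and Acss2os alone. Per the submitters' processing notes, STAR, SAMtools 1.1, HTSeq 0.9.1, DESeq2, limma and mm10 are named, with no stated role. The annotation and strand setting of the counting are not given in the sources used here. Per the labels' protocols, polyadenylated RNA from 300 ng of total RNA was sequenced.

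Tests used edgeR 4.0.16 (quasi-likelihood) under R 4.3.3 (TMM; filterByExpr, minimum count 10, minimum total 15), two-sided, with Benjamini-Hochberg adjustment over 15453 genes (whole, genotype term) or 14808 (dorsal, terms for group and batch). Each standard error was taken as the log2 difference over the root of F. Alternatives were DESeq2 1.42.0, limma-voom (limma 3.58.1), other size factors, no filter, no batch term, a replicate block, single batches, the compared groups alone and leaving out each library. The model code was tested on simulated data. Dorsal libraries of the same replicate number showed no pairing. Their deviations from the fitted group and batch terms had a median correlation of -0.07, beside 0.03 at other numbers. In whole hippocampus, deviations from group means had medians of -0.39 and 0.39. With 2 libraries a group these values mirror each other, so they cannot decide on pairing there. Libraries of a group differed by more than sampling noise (chi-square per gene 5.97 to 61.3). CPM per kb used 1 transcript per gene of GENCODE M21.

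Members and lists were chosen with earlier results of these data known. Named genes were the 10 members, Acss2os, called genes within 1 Mb of Acss2, called genes of the 3 pathway lists or else up to 5 with the smallest p, and the 5 genes most like Acss2 over dorsal libraries. Acss1, Acss3, Acly and Ggt1 were added as relatives of members after their values were seen.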

Additional observations from a re-analysis of the deposited data

Results flagged for a closer look

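Of 30 sets of values from 1 gene in 1 group of 4 or 5 libraries, 1 held a library far from the others. Gss in the KO home cage reached 30.1 CPM in replicate 1, and the next library stood at 25.1 CPM. The gap was 0.713 of the group's range. Chance gives such a value in about 1 set in 20. In the same library Ncoa6 was lowest of its group, at 45.4 CPM, and Eif6 highest, at 69.4 CPM. The long minus short gene measure was also lowest of the group there, at -0.57.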

How the results depend on the processing

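Acss2 passed the threshold in each alternative run for KO against WT and KO against Het. Its KO against WT log2 difference ran from -3.17 to -3.11 in whole hippocampus, -4.01 to -3.81 in the home cage and -3.82 to -3.35 after fear. Counts of called genes among the 10 changed as follows. Het against WT went from 0 to 1 with no filter and with DESeq2 (Acss2 in both), and to 3 without Het replicate 1 (Acss2, Myh7b and Trpc4ap), a range of 0 to 3 over single libraries left out. KO against Het ranged from 1 to 2, with Myh7b added without Het replicate 1. KO against WT after fear went from 3 to 1 with the replicate block and to 1 without both KO fear libraries of B1, to 2 with no batch term, within B1 alone and with the 2 groups alone (Ggt7 missed the threshold in each), and ranged from 1 to 4 over single libraries left out, Eif6 being the fourth without KO home cage replicate 3. WT fear against home cage ranged from 0 to 1, with Mmp24 added without KO home cage replicate 1. The replicate block changed no other count of the 10. The cause was not tested.

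Ggt7 passed after fear in 17 of 26 alternatives and Ncoa6 in 21 of 26. Of 2295 gene values under alternatives, 2067 kept their side of the threshold, 219 no longer passed, 9 newly passed and 0 turned a called direction. Among the 2067 were 68 that changed sign without passing on either side. Counts over all genes moved more. After fear, 3298 genes became 1 with the replicate block, WT fear against home cage went from 241 to 15 with it, and leaving out single libraries gave 1 to 4610; in the home cage that gave 1 to 585, for Het against WT 0 to 1424, for KO against Het 6 to 1211 and for the interaction 0 to 1007. WT fear against home cage had 241 genes, and 5 to 938 over the alternatives other than leaving out 1 library. DESeq2 called 19 genes (KO against WT), 142 (Het against WT) and 135 (KO against Het) in whole hippocampus, where edgeR called 6, 0 and 13. The depth of 40 to 186 Acss2 reads in KO libraries limits how finely the remainder can be compared between groups, and whole hippocampus had 2 libraries a group.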
